A study of Mus musculus with 8 samples.

Results

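The Id, Hes and Hey genes encode small transcriptional repressors that hold neural progenitors back from differentiation. Members of these families and Nrarp, 10 genes in all, are described here in the cortex of mouse embryos made to overexpress VEGF-A. They are the inhibitors of DNA binding Id1, Id2, Id3 and Id4, the Hes and Hey genes Hes1, Hes5, Hey1, Hey2 and Heyl, and Nrarp, a Notch-regulated ankyrin repeat protein. The genes were chosen by family name with their differences between the groups in these same arrays already known, so those differences are given as a description and support nothing further. Each of the 10 was read by 1 probe set that the platform annotation assigns to that symbol alone, out of 19938 genes in all.

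Id proteins have a helix-loop-helix but no basic DNA-binding region, and they keep E proteins and proneural factors from binding DNA. Their genes are best known as targets of bone morphogenetic protein (BMP) signalling through Smad proteins, in radial glia as well as in endothelial cells. Hes and Hey proteins do bind DNA, and Hes proteins recruit Groucho co-repressors. The genes of both are switched on when the cleaved Notch receptor joins RBPJ, its DNA-binding partner. In embryonic cortex Hes1 and Hes5 keep radial glia, the neural stem cells, undifferentiated, while Hey1, Hey2, Heyl and Nrarp are also known from blood vessels, where Notch acts downstream of VEGF-A.

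RNA came from the brain cortex at embryonic day 16, on a mixed strain background, and was measured on 8 Affymetrix whole-transcript arrays. In the 4 arrays of the VEGF group the embryos are GFAP-tTA: TetO-VEGF-A164 bitransgenics, that is, the tetracycline transactivator is driven by the Gfap promoter of the astroglial lineage and switches on the VEGF-A transgene. The 4 control arrays are labelled wild type and described as lacking TetO-VEGF-A164. The labels do not say whether they carry the transactivator or whether embryos were pooled. Nothing says that the arrays of a group came from separate litters, so they may not be independent. Part of the spread between them may be technical.

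The deposited values are logarithms whose base was taken to be 2, and each probe set was shifted so that the median of its 8 values is 0. A value is therefore a distance from that gene's own median and keeps no absolute level. Neither the presence of the labelled tissue's markers nor the order of the members by abundance can be read from it. Centring also places the middle pair of a gene's 8 ordered values at equal distances on either side of 0. Vegfa, the targeted gene, was at -0.04 ± 0.08 in control and 0.01 ± 0.06 in the VEGF group (SD, n = 4 each), and its groups overlapped. It therefore does not check the labels, and "VEGF" below means the arrays so labelled. Array medians lay between -0.0091 and 0.015. Interquartile ranges were less alike, from 0.061 in control 4 to 0.14 in VEGF 2, with 0.10 in VEGF 3 and 0.065 in VEGF 4. Xist showed a female pattern in control 3, VEGF 2 and VEGF 3, and a male pattern in the other 5 arrays. Thalamus markers were highest in VEGF 1 and VEGF 2, and control 2 held the highest value of its group. In bulk tissue, more cells of a type and more RNA per cell cannot be told apart.

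Id1 and Id3 lay higher in every VEGF array than in any control array. Id1 was at -0.060, -0.022, -0.10 and -0.085 in controls 1 to 4, and at 0.24, 0.36, 0.51 and 0.022 in VEGF 1 to 4. The control arrays were close together and VEGF 3 was highest, while VEGF 4 was only just above control 2. The difference, VEGF minus control, was 0.35 (log2 scale, SE 0.089), or 1.27-fold if the base is 2.

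Id3 was at -0.11, -0.035, -0.15 and -0.14 in the controls and at 0.26, 0.35, 0.63 and 0.035 in the VEGF arrays. Its order over the 8 arrays was exactly that of Id1, again with VEGF 3 at the top and VEGF 4 next to control 2. The difference was 0.43 with an SE of 0.11, or 1.35-fold. Id3 had the largest difference of the 10 genes.

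Id4, which promotes expansion of neural progenitors, was at -0.35, -0.027, 0.027 and -0.18 in the controls and at 0.17, 0.29, 0.27 and -0.051 in the VEGF arrays. Here the groups overlapped, because VEGF 4 lay below controls 2 and 3. The other 3 VEGF arrays were above all 4 controls. The difference was 0.31 with an SE of 0.10.

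Id2, found in postmitotic cortical neurons as well as in progenitors, ran the other way. It was at 0.33, -0.022, -0.034 and 0.34 in the controls and at -0.30, -0.19, 0.022 and 0.069 in the VEGF arrays. Controls 1 and 4 stood high, VEGF 1 and VEGF 2 stood low, and the other 4 arrays lay close to 0, so the groups overlapped. The difference was -0.25 with an SE of 0.11. The projection neuron markers, 9 of 10 measured, showed the same ends, with means of 0.22 and 0.19 in controls 1 and 4 and -0.31 and -0.35 in VEGF 1 and VEGF 2. All 9 were lower in the VEGF group, with a median difference of -0.42, and 0 of them passed the test over all genes. The thalamus markers ran opposite, at -0.40 and -0.36 against 0.83 and 0.72 in the same arrays. With the thalamus marker mean as a covariate the difference of Id2 was -0.055, and those of Id1, Id3 and Id4 were 0.27, 0.35 and 0.17. The part of projection neurons or of thalamic tissue in the Id2 difference was not tested.

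Of the Hes and Hey genes, Hes1 differed most. It was at -0.21, -0.15, -0.021 and -0.021 in the controls and at 0.021, 0.29, 0.38 and 0.029 in the VEGF arrays. VEGF 2 and VEGF 3 stood high, and VEGF 1 and VEGF 4 were barely above controls 3 and 4, and the groups did not overlap. The difference was 0.28 with an SE of 0.089, or 1.22-fold.

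Hes5, the other Notch effector of radial glia, was at -0.16, -0.037, 0.076 and -0.065 in the controls and at 0.037, -0.054, 0.16 and 0.040 in the VEGF arrays. The groups overlapped, with control 3 above every VEGF array but VEGF 3. The difference was 0.091 with an SE of 0.060, and it was 0.053 without VEGF 3 and 0.054 without control 1.

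Hey2, an arterial endothelial and cardiac repressor that is also made by neural progenitors, was at -0.16, -0.0078, -0.29 and -0.10 in the controls and at 0.0078, 0.035, 0.14 and 0.062 in the VEGF arrays. The VEGF arrays were the tighter group and all lay above control 2, the highest control. The difference was 0.20 with an SE of 0.059, or 1.15-fold.

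Hey1, a close relative with endothelial and neural expression, was at -0.14, -0.16, 0.043 and -0.0031 in the controls and at -0.10, 0.0031, 0.26 and 0.011 in the VEGF arrays. Only VEGF 3 stood apart. The difference of 0.11 (SE 0.080) was 0.033 without that array. Heyl, known from vascular smooth muscle and pericytes, was the member of its family that was lower in the VEGF group, at 0.033, 0.17, -0.064 and 0.079 in the controls and -0.033, -0.10, -0.071 and 0.068 in the VEGF arrays. Its groups overlapped and the difference was -0.088 with an SE of 0.057, which was -0.050 without control 2. Nrarp, a feedback inhibitor that Notch induces, ranged from -0.094 to 0.10 in the controls and from -0.065 to 0.092 in the VEGF arrays. Its difference was 0.018 with an SE of 0.050, and the groups covered nearly the same range.

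**Figure D1:**
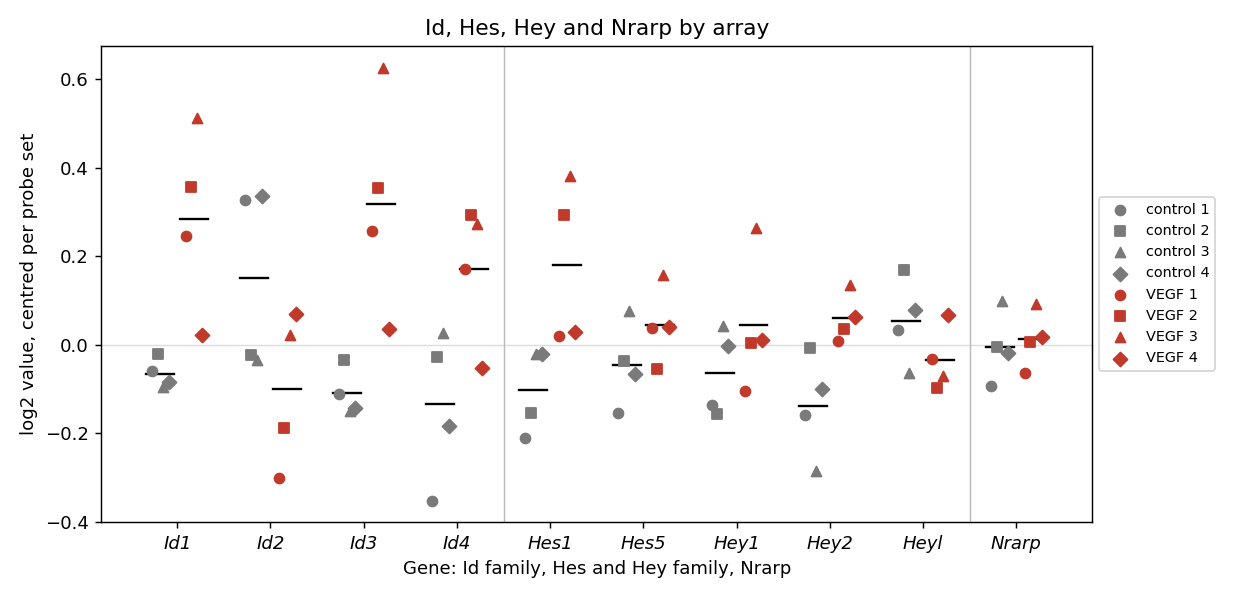
Log2 values of the 10 genes, centred per probe set, in 4 control arrays (grey) and 4 VEGF arrays (red), with a marker shape for each replicate number and a black bar at each group mean. Id1, Id3, Hes1 and Hey2 have all VEGF arrays above all controls, and VEGF 3 (red triangle) is the highest VEGF array for all 10 genes except Id2, Id4 and Heyl.

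Over the whole table no gene passed limma's test at an adjusted p of 0.05, that is 0% of 19938 genes, and the 10 genes had adjusted p-values between 0.24 and 0.93. At an unadjusted p under 0.05 there were 12.5% of all genes and 5 of the 10 (Id1, Id3, Id4, Hes1 and Hey2). The groups did not overlap in 6.84% of all genes and in 4 of the 10, all of them higher, where the VEGF arrays lay above control in 2.13% of all genes and below it in 4.71%. As the genes were chosen with these differences known, nothing is read from their excess over those shares. The median difference over all genes was -0.010.

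Set beside each other as families, the Id genes had the larger difference by value, but the groups overlapped in the gap between the families. The mean of the 4 Id genes was -0.039 ± 0.021 in control and 0.17 ± 0.15 in the VEGF group (SD, n = 4 each), so that the means differed by 0.21 (SE 0.075). It was 0.093, 0.20, 0.36 and 0.018 in VEGF 1 to 4 and between -0.063 and -0.019 in the controls. The mean of Hes1, Hes5, Hey1, Hey2 and Heyl was -0.059 ± 0.046 in control and 0.059 ± 0.080 in the VEGF group, so that the means differed by 0.12 (SE 0.046). In both families the groups did not overlap. For the Hes and Hey mean, however, VEGF 1 at -0.014 lay close to control 4 at -0.022. Without Id2 the remaining Id genes differed by 0.36 (SE 0.10). Within the other family, the Hes pair differed by 0.19 (SE 0.072) and the Hey genes by 0.072 (SE 0.044).

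The Id mean minus the Hes and Hey mean was 0.076, 0.011, -0.013 and 0.0034 in the controls and 0.11, 0.17, 0.18 and -0.024 in the VEGF arrays. VEGF 1 to 3 were above all controls and VEGF 4 below them, so the groups overlapped, and the gap differed by 0.090 with an SE of 0.051. No p is given, since the genes were chosen with these values known.

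By value, Id1, Id3, Hes1 and Hey2 differed more within the female Xist pattern than within the male one. Between VEGF 2 and VEGF 3 and the single female-pattern control, Id1 differed by 0.53 and Id3 by 0.64. Among the 5 male-pattern arrays, 3 control and 2 VEGF, they differed by 0.19 and 0.24. Hes1 and Hey2 differed by 0.36 and 0.37 within the female pattern and by 0.15 and 0.12 within the male pattern. Id4 differed by about as much in each, 0.26 and 0.25, whereas Id2 differed by -0.050 and -0.33. Hes5 and Nrarp differed in sign between the patterns, at -0.024 and -0.050 in the female and 0.12 and 0.016 in the male pattern. Hey1 differed by 0.090 and 0.052, and Heyl by -0.021 and -0.076. The Id mean differed by 0.34 in the female and 0.087 in the male pattern, and the Hes and Hey mean by 0.15 and 0.076. With 1 female-pattern control the difference between patterns was not tested.

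The highest correlation among the 10 was that between Id1 and Id3. Over the 8 arrays Pearson's r was 0.995 and Spearman's rho was 1. Both include the group differences that the genes were chosen with, so no p is given for them. With each group's mean removed r was 0.985. An exact two-sided permutation of the arrays within each group gave p = 0.0052 for it, and an adjusted p of 0.23 over the 45 pairs, so it did not pass the correction. That permutation cannot give a p below 0.0017, so after adjustment over 45 pairs a lone pair could not pass at any r. Once VEGF 2 and VEGF 3, which lie farthest from Id1's median, were left out, r on the deposited values was 0.991. Of the 19937 other genes in the table, Id3 ranked first by likeness to Id1, both as deposited and with group means removed. In the reverse look-up Id1 ranked 1 as deposited and 2 with group means removed. Id3 minus Id1 stayed between -0.058 and 0.013 in all arrays but VEGF 3, where it was 0.11. This ranking was looked up after the values were seen.

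By the within-group permutation 0 of the 45 pairs passed the adjustment, and 4 had an unadjusted p under 0.05 (Id1 with Id3, Nrarp with Hes5 and with Hey1, and Hes1 with Hey1). The Notch feedback gene Nrarp had r = 0.833 with Hes5 and 0.809 with Hey1 with group means removed (exact permutation, adjusted p = 0.25 for each), and 0.785 with each on the deposited values. Without the arrays farthest from each median the deposited values gave 0.444 (Hes5, without control 1 and VEGF 3) and 0.920 (Hey1, without control 2 and VEGF 3), so the first rests on those arrays. Id1 and Hes1 had r = 0.883 as deposited, 0.715 with group means removed (exact permutation, adjusted p = 0.51) and 0.408 without VEGF 2 and VEGF 3. Id2 and Id4 ran opposite, with r = -0.820 as deposited, -0.697 with group means removed (exact permutation, adjusted p = 0.46) and -0.495 without controls 1 and 4. Hey2 and Heyl had r = -0.026 as deposited and 0.699 with group means removed. Of all 45 pairs, 29 had a positive r as deposited and 30 with group means removed.

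**Figure D2:**
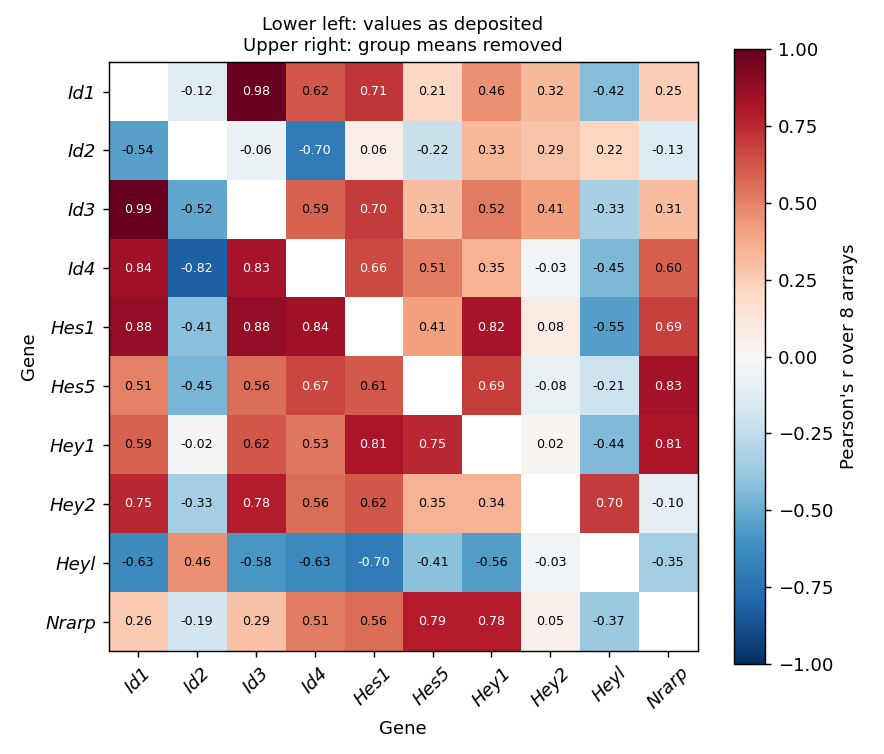
Pearson's r between pairs of the 10 genes over 8 arrays, on the deposited values below the diagonal and with each group's mean removed above it. Id1 with Id3 is the closest pair on both sides, and Id2 and Heyl have negative values with most others below the diagonal.

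Genes outside the families that varied most like them were looked up among 18698 named genes, with group means removed and no test. For the Id mean they were Kat8 (r = 0.979), Fam181b (r = 0.967) and Stc2 (r = 0.967) over the 8 arrays. Of these, Fam181b also had a difference in the same direction, 0.18 with an SE of 0.078, while Kat8 and Stc2 differed by -0.022 and -0.083. For the Hes and Hey mean they were Ppp4c, Aimp2 and Wdr74, with r of 0.985, 0.982 and 0.981. Their differences were -0.0090, 0.048 and 0.013.

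Promoters are shown for genes on either side of this pattern: Id3 and Id4, which lay higher, Id2, which lay lower, and Hes5 and Hey2 of the Notch-regulated family. RefSeq's promoter table of GRCm38.p6, with 250 bases before and 50 after each listed start, held 6 of the 10 genes (Id2, Id3, Id4, Hes5, Hey2 and Nrarp), and Id1, Hes1, Hey1 and Heyl are named only. The windows are chr4:136143572-136143871 on the plus strand for Id3, chr13:48260866-48261165 on the plus strand for Id4, chr12:25096043-25096342 on the minus strand for Id2, chr4:154960673-154960972 on the plus strand for Hes5 and chr10:30842734-30843033 on the minus strand for Hey2. Capitals mark, on either strand, GTGGGAA, the core that RBPJ binds, GGCGCC, a GC-rich core of BMP response elements that reads the same on both strands, and GTCTG, a core bound by Smad4. No matches overlap in these windows.
Id3: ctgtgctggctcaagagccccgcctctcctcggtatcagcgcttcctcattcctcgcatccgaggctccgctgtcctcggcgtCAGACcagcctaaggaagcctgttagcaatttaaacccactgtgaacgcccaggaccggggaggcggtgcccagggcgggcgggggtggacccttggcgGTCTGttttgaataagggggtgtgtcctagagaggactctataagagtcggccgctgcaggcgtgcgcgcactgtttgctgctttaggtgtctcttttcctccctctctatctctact
Id4: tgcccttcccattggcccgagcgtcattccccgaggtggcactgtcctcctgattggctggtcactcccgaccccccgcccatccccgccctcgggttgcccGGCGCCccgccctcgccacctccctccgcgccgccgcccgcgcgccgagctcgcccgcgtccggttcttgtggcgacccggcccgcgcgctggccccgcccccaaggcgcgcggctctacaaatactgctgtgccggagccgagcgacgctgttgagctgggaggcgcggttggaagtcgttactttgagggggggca
Id2: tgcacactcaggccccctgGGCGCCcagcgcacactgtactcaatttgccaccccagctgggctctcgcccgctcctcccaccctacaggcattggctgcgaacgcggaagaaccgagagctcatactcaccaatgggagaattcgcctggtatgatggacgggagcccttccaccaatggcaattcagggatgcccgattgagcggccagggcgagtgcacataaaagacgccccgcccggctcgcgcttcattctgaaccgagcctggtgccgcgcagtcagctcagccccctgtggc
Hes5: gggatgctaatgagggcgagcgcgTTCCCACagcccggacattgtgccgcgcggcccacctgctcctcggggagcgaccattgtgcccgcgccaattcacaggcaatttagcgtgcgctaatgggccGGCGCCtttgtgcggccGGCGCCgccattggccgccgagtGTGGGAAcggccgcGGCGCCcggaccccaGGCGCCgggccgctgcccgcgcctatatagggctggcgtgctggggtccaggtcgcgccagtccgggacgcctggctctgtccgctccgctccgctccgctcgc
Hey2: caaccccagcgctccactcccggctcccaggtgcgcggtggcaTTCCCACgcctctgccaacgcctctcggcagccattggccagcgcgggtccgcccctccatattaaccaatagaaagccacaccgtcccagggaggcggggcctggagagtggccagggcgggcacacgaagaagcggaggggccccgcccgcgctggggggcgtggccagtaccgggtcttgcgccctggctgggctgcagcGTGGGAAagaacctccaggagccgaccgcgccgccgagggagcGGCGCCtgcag

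Hes5 and Hey2 each held 2 copies of GTGGGAA, 1 on each strand. In Hes5 they began 226 and 83 bases before the start, and in Hey2 207 and 4 bases before it. The 4 other promoters, Id2, Id3, Id4 and Nrarp, held 0. Of all 32851 promoters in the table, 6.38% held at least 1 copy and 0.256% at least 2. GGCGCC occurred 4 times in Hes5 and once each in Id2, Id4 and Hey2, and in 11.87% of all promoters. Id3 held neither of these, but 2 copies of GTCTG, which 49.59% of all promoters hold. Id2 and Id4, which differed in opposite directions, held the same number of each motif, 1 GGCGCC and 0 of the others. Such matches are letters in a window and show neither binding nor its absence.

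Upstream of the Hes and Hey genes, Notch pathway genes outside the 10 differed in both directions. Of 34 listed, 32 were measured, 11 were higher and 21 lower in the VEGF group, where 43.3% of all genes were higher and 56.7% lower, the median difference was -0.035 and 0 passed limma's adjusted test. The groups did not overlap in 4 of the 32, 2 higher and 2 lower, against 6.84% of all genes (2.13% higher and 4.71% lower). Dll3, a divergent ligand that does not activate Notch in neighbouring cells, was at 0.12, 0.11, 0.21 and 0.050 in the controls and -0.050, -0.063, -0.15 and -0.19 in the VEGF arrays. Every VEGF array lay below every control, and the difference was -0.23 with an SE of 0.047 (limma, adjusted p = 0.24). Among the proteins that process or modify Notch, the protease Adam17 differed by 0.19 (SE 0.047) and the fringe glycosyltransferase Rfng by -0.15 (SE 0.040), each without overlap. The receptors Notch3, of mural cells, and Notch1 differed by 0.10 and -0.051, the ligand-like Dlk2 by -0.081, and the co-activators Maml1 and Maml2 by -0.095 and 0.26. Among other repressors of the family, Bhlhe40 differed by 0.15 and Helt by -0.14, and among Groucho co-repressors Tle3 and Tle2 differed by -0.16 and -0.15. In these lists 0 of 7 and 0 of 6 passed.

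Of 34 measured genes of the BMP pathway, 8 were higher and 26 lower, against 56.7% lower among all genes. The median was -0.035, against -0.010 over all genes, and 0 passed limma's adjusted test. The ligands Bmp5 and Bmp6 differed by -0.34 (SE 0.15) and -0.19 (SE 0.12). Both were lowest in VEGF 3, at -0.41 and -0.45, the array with the highest Id1 and Id3. Of the controls, both were lowest in control 3, at -0.22 and -0.19, which had the lowest Id1 and Id3. A link between these ligands and the Id genes was not tested. Smad9, a signal transducer of BMP receptors, was at -0.050, 0.0041, -0.13 and -0.043 in the controls and at 0.19, -0.0041, 0.11 and 0.090 in the VEGF arrays. VEGF 2 alone lay within the control range, and the difference was 0.15 with an SE of 0.048. The receptor Bmpr2 and the extracellular inhibitors Bmper and Nog differed by -0.092, -0.092 and -0.056. Of the 11 inhibitors and feedback genes 10 were lower, with a median of -0.023.

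The partners of the repressors differed in both directions. The E proteins bound by Id, Tcf3, Tcf4 and Tcf12, had a median difference of -0.018, with Tcf4 at -0.089 and Tcf12 at -0.018. Of 12 measured proneural and neurogenic factors, 6 were higher and 6 lower, with 0 past the adjusted test. Nhlh2 was above control without overlap, by 0.26 (SE 0.068), and Neurod2, of maturing projection neurons, differed by -0.39 (SE 0.14).

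**Figure D3:**
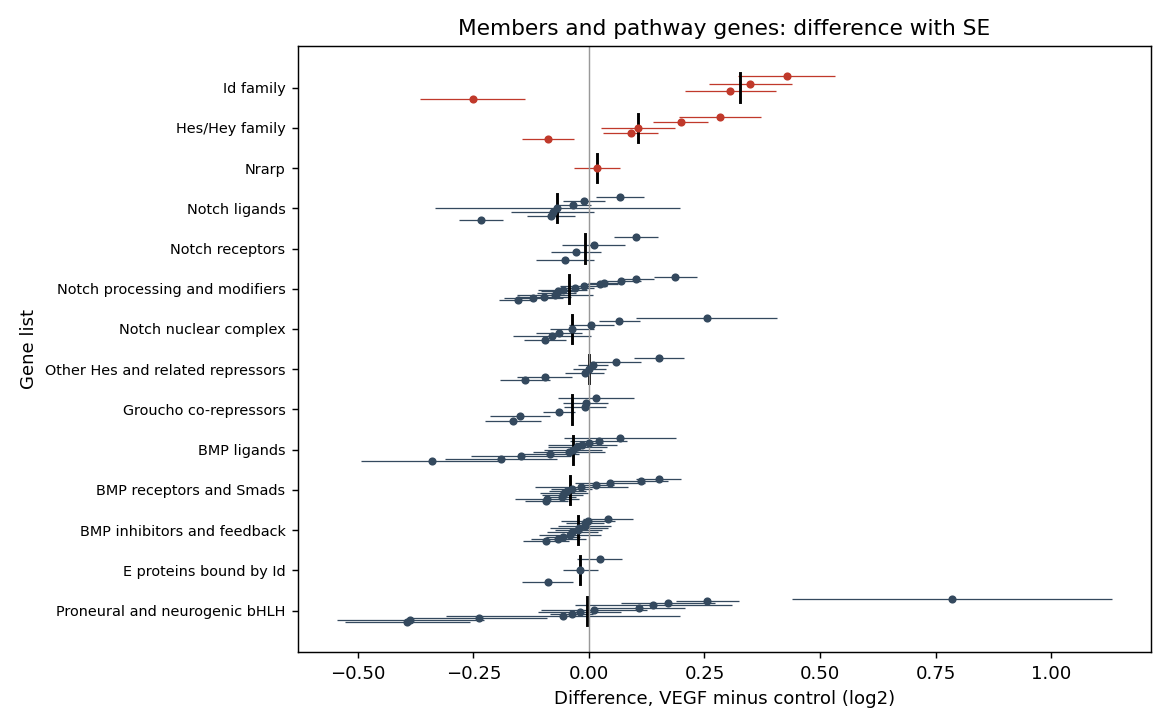
Differences, VEGF minus control, on the log2 scale for each measured gene (points, with the moderated SE from limma) of the 3 member groups (red) and of 11 pathway lists (blue), with a black bar at each list's median. The median is 0.33 for the Id genes and 0.11 for the Hes and Hey genes, and between -0.068 and 0.00080 for the pathway lists.

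Vessel markers were lowest in the array with the highest Id1 and Id3. Among the controls it was the other way. Control 3 had the lowest Id1 and Id3 and the lowest endothelial and mural means, -0.15 and -0.14. Control 2 had the highest of each. The 14 endothelial markers, 6 higher and 8 lower with a median difference of -0.00094, had means from -0.15 to 0.11 in control and from -0.22 to 0.051 in the VEGF arrays. VEGF 3 was the lowest. With their mean as a covariate, Id1 and Id3 differed by 0.33 and 0.40, Hes1 by 0.26 and Hey2 by 0.21. What part vessels have in these differences was not tested. The 8 mural cell markers were lowest in VEGF 3 too, at -0.24, and had a median of -0.051. Mfsd2a, a lipid transporter of brain endothelium, differed by -0.20 and the contractile gene Tagln by 0.15.

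Radial glia markers were slightly higher, 8 of 12, with a median of 0.032. Their means ran from -0.045 to -0.0071 in control and from -0.0021 to 0.072 in the VEGF arrays, and the highest array was VEGF 4, in which Id1 and Id3 were closest to control. In 3 of the 12 (Hopx, Pax6 and Sox2) all VEGF arrays lay above control, against 2.13% of all genes. Mfge8, of the same list, lay the other way by -0.37 (SE 0.097), with overlap. Hopx, a marker of a subset of radial glia, was at 0.25, 0.67, 0.67 and 0.13 in VEGF 1 to 4, so that VEGF 2 and VEGF 3 led and VEGF 4 was last, as for Id1 and Id3. Its difference was 0.68 with an SE of 0.13 (limma, adjusted p = 0.24).

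Other tissue markers did separate the groups or single arrays. All 10 interneuron and ventral forebrain markers were lower, with a median of -0.53 and Lhx6 at -1.23, and their mean was lowest in VEGF 3, at -0.88. All 6 thalamus markers were higher (median 0.46, Lef1 at 0.36), as were all 8 measured erythroid markers (median 0.33, Alas2 at 0.83). Unc5d, of projection neurons, differed by -0.53. Of 8 astrocyte markers 6 were lower, with Aldh1l1 at -0.68, while Gja1 was higher by 0.25 (SE 0.066), without overlap. Of 8 microglial markers 5 were higher, while P2ry12 was lower, at -0.28. The medians were 0.024 for meningeal markers (Slc22a6 at -0.39), -0.033 for cortical hem and choroid plexus markers (Wnt3a at -0.087) and -0.12 for oligodendrocyte precursor markers (Gpr17 at -0.12). With the erythroid marker mean as a covariate Id2 differed by -0.11, Id1 by 0.29 and Id3 by 0.36. The covariates are marker means of the same arrays, and the thalamus and erythroid markers were higher in the VEGF group. Such fits cannot tell tissue from group, and the part of these tissues in the Id and Hes differences was not tested.

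**Figure D4:**
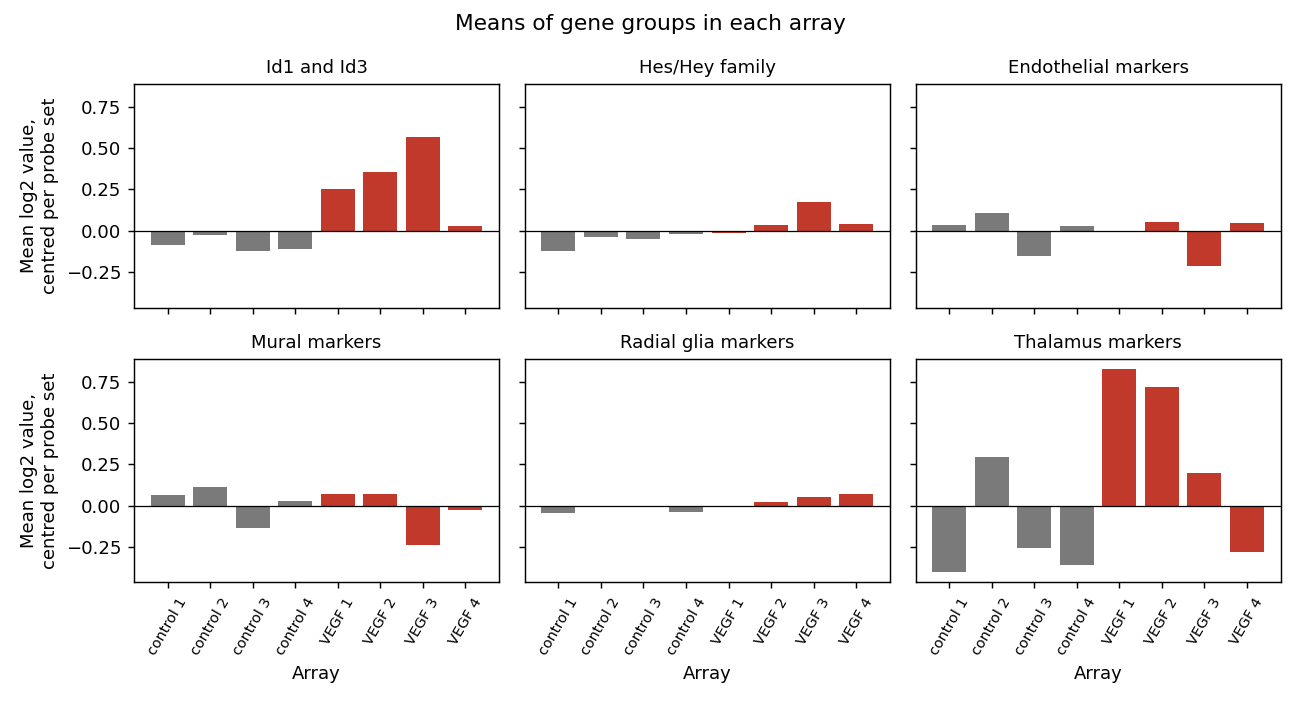
Mean log2 value, centred per probe set, of gene groups in each of 4 control (grey) and 4 VEGF (red) arrays, with bars starting at 0. Id1 and Id3 are highest in VEGF 3, where the endothelial and mural markers are lowest at -0.22 and -0.24. Among the controls, control 3 is lowest for Id1 and Id3 and for both vessel marker groups. Thalamus markers are high in VEGF 1 and VEGF 2.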

How the data were processed

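Brain cortex RNA of control and bitransgenic embryos was hybridised to 4 Affymetrix arrays per group, from 120 ng of total RNA, per the labels' protocols. Per the submitters' processing notes, Expression Console and mm8 were used. The design text describes an unpaired comparison. For 28853 probe sets the authors deposited values taken to be log2, which the values show to be centred per probe set. How background was corrected is not stated. Of these, 21789 had 1 gene symbol, 21698 of them updated through Entrez identifiers to RefSeq, and were averaged to 19938 genes. Probe sets with several symbols or none were left out.

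All genes were fitted with limma 3.58.1 in R 4.3.3, without covariates, with Benjamini-Hochberg adjustment at 0.05. The fit was tested on simulated data. SEs of single genes are moderated, and those of family means are ordinary. Pairs of the 10 genes were compared by exact two-sided permutation within groups, chosen after seeing the data. The 10 genes and all lists were chosen with earlier results of these data known. By rule, the text names the 10 genes, Vegfa, the 2 genes of smallest p in each pathway list, 1 in each marker list, and the 3 genes most like each family mean. Exceptions named after their values were seen are Pax6, Sox2, Mfge8 and Gja1. Alternatives comprised the replicate number as a block, array centring, quantile normalization, other priors, array weights, the methods' t-test, single probe sets, a sex index and 3 marker means as covariates, and left-out arrays. The number of arrays limits the precision.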

Additional observations from a re-analysis of the deposited data

How the results depend on the processing

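All 210 values of the 10 genes over 21 alternatives kept their direction except 3 of Nrarp. Nrarp was -0.0058 with the sex index as a covariate and ranged from -0.012 to 0.052 with an array left out. The replicate block, the other priors, the t-test and single probe sets could not turn a direction here. They leave the difference of a gene with 1 probe set unchanged. For Id1, Id3, Hes1 and Hey2, whose groups do not overlap, left-out arrays and array weights could not turn it either. Of the 210 values, 0 passed an adjusted p of 0.05. The lowest adjusted p was that of Id1 without VEGF 4, 0.057 (limma), where its difference was 0.44. VEGF 4 was the VEGF array nearest to control for Id1, so leaving it out must raise that difference. As the genes were chosen with their differences known, nothing is read from this p. Without the 3 arrays with a female pattern, the Id mean differed by 0.087, the gap between the families by 0.012, 1583 genes had an unadjusted p under 0.05, and 4760 did not overlap, where fewer arrays make non-overlap more frequent. Without control 2, VEGF 1 and VEGF 2, 1 gene passed the adjusted test and 6361 did not overlap. With the erythroid marker mean as a covariate 1463 genes had an unadjusted p under 0.05. With 1 array left out, 0 to 10 genes passed the adjusted test (10 without VEGF 4), 1526 to 2881 had an unadjusted p under 0.05 against 2484 (1526 without control 1 and 1627 without control 4), and 1659 to 2732 did not overlap against 1364. The Id mean then differed by 0.14 to 0.26, the Hes and Hey mean by 0.080 to 0.14 and the gap by 0.064 to 0.13.

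Signs turned for Vegfa (-0.016), Notch1 (0.027), Tcf4 (0.0099) and Tcf12 (0.017) with the thalamus marker mean as a covariate, for Tcf12 (0.020) with the erythroid mean, for Notch1 (0.028) and Ppp4c (0.024) without control 2, VEGF 1 and VEGF 2, and for Wdr74 with array weights (-8.3e-05) and without the female-pattern arrays (-0.023). With 1 array left out, Wdr74 ranged from -0.020 to 0.039, Ppp4c from -0.034 to 0.0033, Notch1 from -0.10 to 5.5e-05 and Kat8 from -0.053 to 0.0034. The cause was not tested.

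For pairs of the 10 genes, a permutation over all 8 arrays of the deposited values, the test first planned, called 1 of 45, Id1 with Id3 (exact permutation, adjusted p = 0.0011). It counts the group differences as part of the correlation. The permutation within groups, added after seeing the data, called 0, and it could not have called a lone pair.

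The labels give both groups the numbers 1 to 4. With the replicate block 2649 genes had an unadjusted p under 0.05, 0 passed the adjusted test and no call changed. Deviations of same-numbered arrays correlated at 0.052, -0.13, 0.45 and 0.30. Arrays numbered 3 and 4 correlated best with their own number and those numbered 1 and 2 did not. Control 2, for example, correlated at 0.52 with VEGF 1. Whether arrays of the same number share a litter or batch was not tested.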
